A study of Mus musculus with 45 samples.

Results

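The mouse mitochondrial genome (chrM) carries 37 genes, and all 37 were counted in ribosome pulldown libraries from the kidneys of 45 mice. They were taken as every gene placed on chrM in the 2 deposited count tables, out of 55401 genes in all, and comprise 13 mRNAs, 2 rRNAs and 22 tRNAs. Translating ribosome affinity purification (TRAP) pulls down cytosolic ribosomes that carry the EGFP-tagged protein L10a, together with the RNA they hold. All mice were hemizygous for RosaEGFP-Rpl10a, Pax8rtTA and TetOCre, so the tag and the deletions were made in Pax8-expressing kidney tubule cells after doxycycline from postnatal day 28 to 42, and kidneys were taken at 7 weeks of age. Noncystic mice were Pkd1fl/+ (8 males, 7 females), Pkd1KO mice were Pkd1fl/fl (7 males, 8 females), and Pkd1KO+ciliaKO mice were Pkd1fl/fl; Kif3afl/fl (9 males, 6 females). Since every mouse carried at least 1 floxed Pkd1 allele and the transgenes, no group is unmanipulated.

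Mitochondria transcribe both strands of their genome as long precursors that are cut into the rRNAs, mRNAs and tRNAs of the organelle. The mRNAs encode subunits of respiratory complexes I, III and IV and of ATP synthase, and they are translated by mitochondrial ribosomes inside the organelle, not by the cytosolic ribosomes that carry L10a. Kidney tubules, above all the proximal tubule and thick ascending limb, are rich in mitochondria, and most subunits of the same complexes are encoded in the nucleus and translated in the cytosol.

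Part of chrM has a near-identical copy in the nuclear genome, which bears on the count of each member. On GRCm38, 7 annotated genes on the minus strand of chromosome 1, between 24611535 and 24616197, match 7 of the mRNAs between mt-Co1 and mt-Nd4, in the same order. Gm28661 matches mt-Co2, Gm10925 matches mt-Atp6, Gm28437 matches mt-Co3, Gm28438 matches mt-Nd3 and Gm10222 matches mt-Nd4l over nearly their whole length. Gm29216 matches the last 483 bases of mt-Co1 and Gm28439 the first 876 bases of mt-Nd4. Over the aligned bases identity was 100% for 6 of the 7 and 99.8% for Gm29216. The reads were 150 bases long, and 97.0% of the 150-base windows of mt-Nd3, 99.4% of those of mt-Co2 and 23.6% of those of mt-Co1 occur unchanged in the copy. The starts of mt-Nd3 (chrM:9459-9518, plus strand) and of Gm28438 (chr1:24613060-24613119, minus strand) are shown because a single base tells them apart, T3C counted from the first base of mt-Nd3, in capitals.
mt-Nd3: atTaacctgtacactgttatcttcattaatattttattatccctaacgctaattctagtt
Gm28438: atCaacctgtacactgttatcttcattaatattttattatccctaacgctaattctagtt
The stretch where the copy of mt-Co1 begins is shown next (chrM:6381-6440, plus strand, against chr1:24616138-24616197, minus strand), with every differing base in capitals. Downstream of these bases the 2 sequences run on without a difference to the end of mt-Co1.
mt-Co1: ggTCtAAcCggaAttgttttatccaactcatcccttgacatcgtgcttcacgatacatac
Gm29216: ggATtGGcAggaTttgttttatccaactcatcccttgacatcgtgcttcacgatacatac
A further 17 annotated transcripts shared at least 1 run of 31 bases with a member, at 80.3% to 97.6% identity over the aligned bases, and they are not on this stretch of chromosome 1. How reads that match more than 1 gene were counted is not given in the sources used here, so members with a copy are given as uncertain. Only annotated transcripts were compared. The stretches of chromosome 1 between the 7 copies were not compared with chrM, so whether mt-Ts1, mt-Td, mt-Tk, mt-Atp8, mt-Tg or mt-Tr, which lie between the matched mRNAs, have a copy there is not known here.

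Of the tRNAs, mt-Tp, mt-Tc and mt-Tr had the most fragments, and their DNA sequences are shown with the anticodon in capitals, found as the middle of a 7-base loop between 5-base arms that pair. mt-Tp (chrM:15356-15422, minus strand) carries proline and mt-Tc (chrM:5192-5257, minus strand) carries cysteine, and both passed the test in a comparison given below. mt-Tr (chrM:9808-9875, plus strand) carries arginine and lies between mt-Nd3 and mt-Nd4l.
mt-Tp: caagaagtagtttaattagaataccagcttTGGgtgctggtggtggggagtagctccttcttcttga
mt-Tc: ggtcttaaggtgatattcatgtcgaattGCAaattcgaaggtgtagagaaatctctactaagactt
mt-Tr: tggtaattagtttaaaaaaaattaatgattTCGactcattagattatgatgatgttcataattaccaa

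Each library held 80874556 to 132958186 fragments assigned to genes. The targeted gene Kif3a, which encodes a motor subunit needed to build cilia, had 4.76 to 7.14 CPM (the gene's counts scaled to a common library size after TMM adjustment) in the 9 male Pkd1KO+ciliaKO mice, and 14.0 to 28.9 in all but 1 of the mice with the gene intact by their labels. The library labelled noncystic female replicate 5 had 6.64 and the library labelled Pkd1KO+ciliaKO female replicate 6 had 20.3, both against their labels, and the counts of called members in female comparisons were also taken without these 2 libraries. The level of Pkd1 was not used as a check. Proximal tubule markers summed to 6600.1 to 15845 CPM in every library, podocyte markers to 42.2 to 186 and endothelial markers to 95.1 to 522, and no podocyte or endothelial marker was at 0 in any mouse.

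Fragments on chrM genes made up a small and uneven part of the pulldown. Their share of all gene fragments ranged from 0.0299% in a female Pkd1KO mouse to 0.446% in a male Pkd1KO+ciliaKO mouse, with a median of 0.0932% over the 45 mice. The lowest, median and highest shares were 0.0401%, 0.0853% and 0.404% in noncystic males, 0.0599%, 0.0897% and 0.303% in Pkd1KO males, and 0.0702%, 0.128% and 0.446% in Pkd1KO+ciliaKO males. In females they were 0.0475%, 0.0923% and 0.243% in noncystic mice, 0.0299%, 0.0677% and 0.167% in Pkd1KO mice, and 0.0762%, 0.196% and 0.269% in Pkd1KO+ciliaKO mice. All 6 groups overlapped, and in each group of males 1 or 2 mice stood well above the others. In female Pkd1KO+ciliaKO mice 5 of 6 were above every female Pkd1KO mouse, and replicate 1 at 0.0762% was the exception. Among the 5 is replicate 6 at 0.182%, the library with Kif3a against its label.

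**Figure D1:**
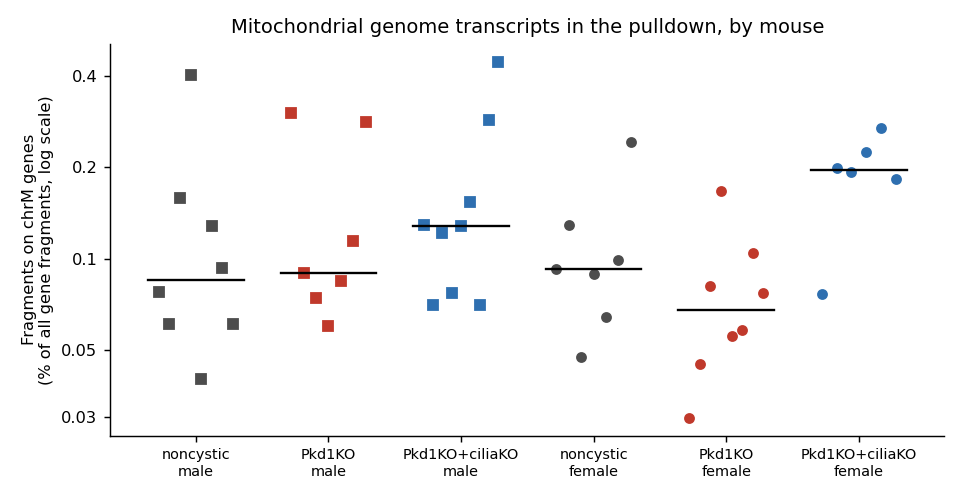
Share of all gene fragments that fell on the 37 chrM genes, in percent on a log axis, for each of the 45 mice by group (squares males, circles females; black line, group median). Female Pkd1KO+ciliaKO mice have the highest median, 0.196%, and female Pkd1KO mice the lowest, 0.0677%, and every group overlaps every other.

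The mRNAs accounted for 98.2% to 99.5% of the chrM fragments of each mouse, the rRNAs for 0.201% to 1.51% and the tRNAs for 0.202% to 0.396%. The libraries were depleted of rRNA before sequencing, so the rRNA levels are those left after depletion. Of the tRNA fragments over all mice, mt-Tp held 60.7%, mt-Tc 8.68% and mt-Tr 6.39%. mt-Tp had 65 to 878 fragments in a mouse, whereas mt-Td had none in any mouse and mt-Tf none in 42 of 45. In the mouse with the smallest library a count of 0 allows up to 0.0371 CPM, which covers counting error only.

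Per length, the mRNAs fell into 2 ranges. mt-Co1, which encodes the catalytic subunit of complex IV, had a lowest, median and highest level of 76.5, 245 and 876 normalized CPM per kb over the 45 mice, the highest median of the members. mt-Cytb, the only complex III subunit of chrM, had 37.6, 129.6 and 787, and mt-Nd1 of complex I had 32.8, 109 and 619 CPM per kb. These 3 overlapped widely between mice. mt-Nd5 had a median of 96.5, mt-Nd4 of 67.0, mt-Nd2 of 36.9 and mt-Nd6 of 31.5 CPM per kb, all subunits of complex I. The 5 mRNAs with a nearly full-length copy were much lower, with medians per kb of 2.35 for mt-Co2, 1.90 for mt-Nd3, 1.44 for mt-Co3, 0.820 for mt-Nd4l and 0.523 for mt-Atp6. mt-Atp8, which overlaps mt-Atp6, had at most 6 fragments in a mouse and none in 24 of 45. The part of the copy in these low counts was not tested. The rRNAs, as left after depletion, had medians of 3.06 (mt-Rnr1) and 2.00 (mt-Rnr2) CPM per kb.

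**Figure D2:**
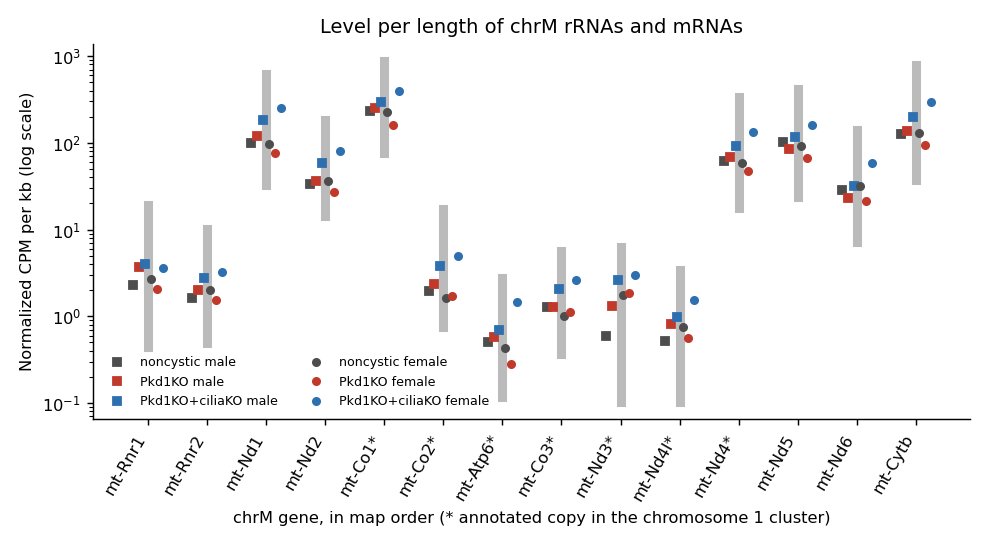
Level of each chrM rRNA and mRNA in normalized CPM per kb (log axis) in map order, with the median of each group (points) and the range over all 45 mice (grey bars). mt-Atp8 is not drawn because its median is 0, and asterisks mark genes with an annotated copy on chromosome 1. The medians of mt-Co2 to mt-Nd4l lie between 0.523 and 2.35 CPM per kb over all mice, below the 36.9 of mt-Nd2.

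Among the 13 mRNAs the shares of the abundant ones were far steadier than their levels. mt-Co1 made up a lowest, median and highest share of 30.6, 36 and 42.3% of the mRNA fragments over the 45 mice, mt-Nd5 14.7, 17.5 and 26.3%, mt-Cytb 13.8, 17.1 and 21.8% and mt-Nd1 9.49, 12.1 and 15.0%. Shares are given as a description, without a test. In Pkd1KO females mt-Nd1 made up 9.77, 10.4 and 12.1% and in Pkd1KO+ciliaKO females 12.1, 13.8 and 14.6%, which overlap only at their ends. mt-Nd6, the only mRNA on the light strand, made up 0.942, 1.28 and 1.33% in Pkd1KO males and 1.34, 1.85 and 2.81% in Pkd1KO females, and these ranges did not overlap.

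As measured by deviations from the group means of log2 CPM over the 45 mice, the members moved together. The correlation with mt-Co1 was 0.98 for mt-Cytb, mt-Nd4 and mt-Nd1, 0.97 for mt-Nd2 and 0.94 for mt-Nd6, and it was 0.44 for mt-Nd3 and 0.53 for mt-Nd4l. The points share libraries and depth, and the values are a description. The spread between mice of a group was wide: the standard deviation of log2 CPM was 0.75 for mt-Co1 and 0.94 for mt-Cytb, beside a median of 0.17 over the 9605 genes with a mean of at least 10 CPM. The 7 members at that level had percentiles of 99.0 to 99.5 among these genes.

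The comparison of Pkd1KO with Pkd1KO+ciliaKO mice asks what differs when the same Pkd1 deletion is made with and without cilia. In females 9 of the 26 members tested passed the threshold (adjusted p at most 0.05), and all 9 were lower in Pkd1KO. Over all 22585 genes tested 3.68% were called lower and 9.51% in either direction. Called were the complex I subunits mt-Nd1, mt-Nd2 and mt-Nd4, the complex IV subunits mt-Co1 and mt-Co2, mt-Cytb, the ATP synthase subunit mt-Atp6, and the tRNAs mt-Tp and mt-Tc. All 26 members had a negative log2 fold change, with a median of -0.95, against -0.03 over all genes tested. The members share libraries and most move together, so these counts of members are not independent observations. Every p-value given for a gene comes from edgeR (quasi-likelihood F-test), adjusted over all genes tested by the Benjamini-Hochberg method. Each SE is approximate: the size of the log2 fold change divided by the square root of its F statistic.

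The lowest, median and highest levels of mt-Nd1 were 31.4, 73.3 and 154 CPM in Pkd1KO females and 91.0, 238 and 352 in Pkd1KO+ciliaKO females, a log2 fold change of -1.66 (SE 0.30, adjusted p = 0.00327). The groups overlapped, since Pkd1KO+ciliaKO replicate 1 had the lowest value of its group. mt-Co1 had 118, 251 and 476 CPM in Pkd1KO and 309, 608 and 869 in Pkd1KO+ciliaKO females, with a log2 fold change of -1.20 (SE 0.25, adjusted p = 0.00775). mt-Cytb had 43.0, 108 and 272 CPM against 114, 338 and 462, with a log2 fold change of -1.48 (SE 0.34, adjusted p = 0.0120). For these genes too the upper Pkd1KO mice reached into the range of the Pkd1KO+ciliaKO mice. Noncystic females lay between the other groups by their medians, with 52.8, 91.8 and 325 CPM of mt-Nd1 and 179, 347 and 748 of mt-Co1.

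Of the other called complex I subunits, mt-Nd2 had a log2 fold change of -1.30 (SE 0.31, adjusted p = 0.0153) and mt-Nd4 of -1.32 (SE 0.33, adjusted p = 0.0206). The members with a full-length copy that were called, mt-Co2 and mt-Atp6, had log2 fold changes of -1.62 (SE 0.32, adjusted p = 0.00571) and -1.82 (SE 0.35, adjusted p = 0.00408). Their own copies were lower as well, Gm28661 with a log2 fold change of -1.52 (SE 0.32, adjusted p = 0.00705) and Gm10925 of -1.88 (SE 0.35, adjusted p = 0.00333). mt-Tp had 0.504, 0.997 and 2.11 CPM in Pkd1KO and 0.873, 3.01 and 4.27 in Pkd1KO+ciliaKO females, a log2 fold change of -1.48 (SE 0.32, adjusted p = 0.00832), and mt-Tc of -1.20 (SE 0.31, adjusted p = 0.0233). Both tRNAs lie on the strand opposite to most mRNAs, but whether strand was used in counting is not given in the sources used here. At 67 and 66 bases both genes are shorter than the 150-base reads, and the part of longer RNAs in their counts was not tested. The members that missed the threshold included mt-Nd5 at -0.90 (SE 0.38, adjusted p = 0.141), mt-Nd6 at -0.84 (SE 0.41, adjusted p = 0.209), mt-Rnr1 at -0.71 (SE 0.45, adjusted p = 0.342) and mt-Rnr2 at -0.81 (SE 0.42, adjusted p = 0.235). The values of mt-Nd3, mt-Nd4l and mt-Tr were -0.23 (SE 0.55, adjusted p = 0.826), -0.44 (SE 0.51, adjusted p = 0.635) and -0.03 (SE 0.58, adjusted p = 0.982).

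Of the 9 genes, 7 were called whichever mouse was left out, and mt-Nd4 and mt-Tc in 13 of 14 fits. Leaving out each of the 14 mice in turn gave 8 to 14 called members, and the highest count came without Pkd1KO replicate 4. Without the library against its Kif3a label the count was 9. In bulk libraries fewer cells of a type and less RNA per cell cannot be told apart. The tagged ribosomes do not translate chrM RNAs, and how these RNAs came into the pulldown was not tested.

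**Figure D3:**
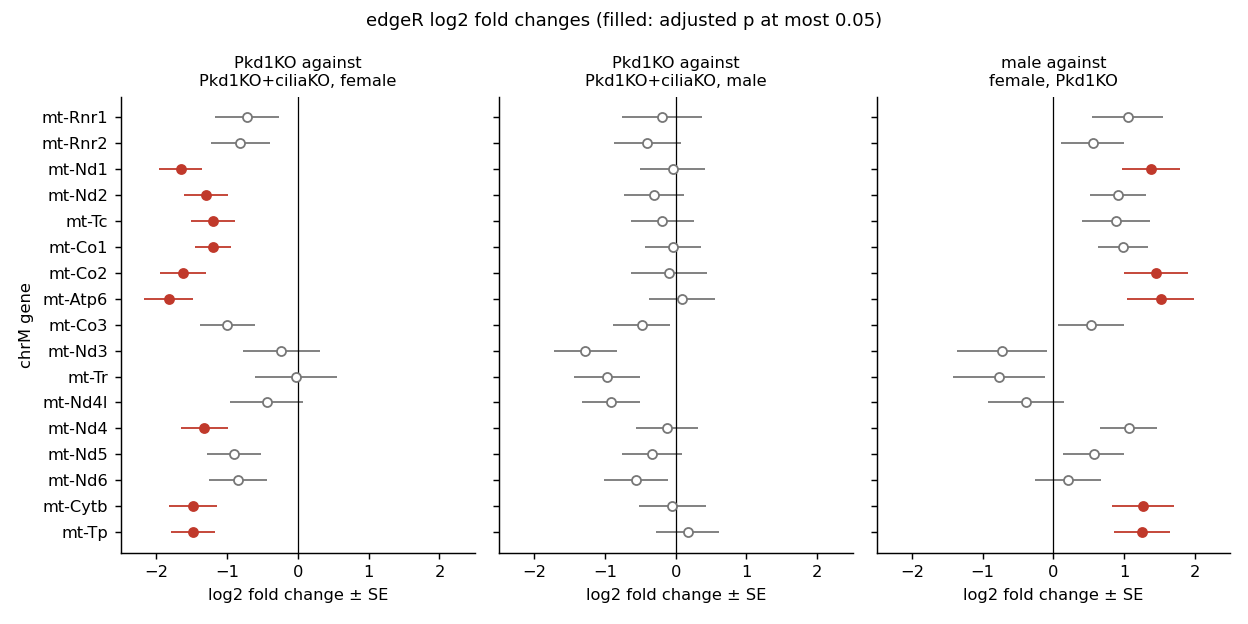
edgeR log2 fold change with its SE for 17 chrM genes in map order, for Pkd1KO against Pkd1KO+ciliaKO females and males and for male against female Pkd1KO mice (filled red, adjusted p at most 0.05). The SE is approximate and derived from the F statistic. In females 9 genes are filled, all below 0, from -1.20 to -1.82; in males none is filled; between the sexes 5 are filled, all above 0.

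In males none of the 26 members was called between Pkd1KO and Pkd1KO+ciliaKO mice, where 3.32% of all genes were. mt-Nd1 had 66.1, 115 and 453 CPM in Pkd1KO and 79.0, 174 and 592 in Pkd1KO+ciliaKO males, with a log2 fold change of -0.04 (SE 0.46, adjusted p = 0.974). mt-Co1 had 206, 394 and 1095 and 267, 455 and 1354 CPM, with -0.04 (SE 0.39, adjusted p = 0.973). The ranges of both genes overlapped nearly completely. The edgeR test gave no member an adjusted p under the threshold, and the number with an unadjusted p under 0.05 was 4. DESeq2 called 2, mt-Nd3 and mt-Ts2. Of the fragments on mt-Nd3 and its copy Gm28438, mt-Nd3 held under 50% in 2 of 7 Pkd1KO and 0 of 9 Pkd1KO+ciliaKO males.

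The sex difference in this genotype effect was itself tested as an interaction over all 45 mice. edgeR and DESeq2 called no member, 7 had an unadjusted p under 0.05 with edgeR, and 0.157% of all genes were called. For mt-Nd1 the male effect exceeded the female one by 1.61 on the log2 scale (SE 0.66, adjusted p = 0.498) and for mt-Co1 by 1.16 (SE 0.54, adjusted p = 0.609). The 9 calls in females and 0 in males are therefore not shown to differ between the sexes.

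Against noncystic mice no member was called in any of the 4 comparisons. The share of all genes called was 4.02% for Pkd1KO males, 2.24% for Pkd1KO females, 6.88% for Pkd1KO+ciliaKO males and 1.46% for Pkd1KO+ciliaKO females. In Pkd1KO+ciliaKO females mt-Co1 had a log2 fold change of 0.68 (SE 0.28, adjusted p = 0.197) and in Pkd1KO females of -0.52 (SE 0.29, adjusted p = 0.449) against the same noncystic mice. In males the values of mt-Co1 were 0.21 (SE 0.38, adjusted p = 0.822) and 0.17 (SE 0.44, adjusted p = 0.892). With edgeR the numbers of members with an unadjusted p under 0.05 were 1 (Pkd1KO males), 2 (Pkd1KO females), 5 (Pkd1KO+ciliaKO males) and 12 (Pkd1KO+ciliaKO females), and DESeq2 called mt-Nd3 and mt-Nd4l in Pkd1KO+ciliaKO males and mt-Co3 in Pkd1KO+ciliaKO females, all higher than in noncystic mice. In the male comparison the copies of mt-Nd3 and mt-Nd4l had edgeR log2 fold changes of the opposite sign, -2.38 (SE 0.62, adjusted p = 0.0244) for Gm28438 and -1.28 (SE 0.51, adjusted p = 0.145) for Gm10222, and mt-Nd3 held under 50% of the fragments on mt-Nd3 and Gm28438 in 5 of 8 noncystic and 0 of 9 Pkd1KO+ciliaKO males. The other 2 interactions of sex and genotype called no member either, with either tool or at an unadjusted p under 0.05 with edgeR, where 0.00873% (Pkd1KO against noncystic) and 0.0218% (Pkd1KO+ciliaKO against noncystic) of all genes were called.

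Between the sexes, 5 of 26 members were higher in male than in female Pkd1KO mice, beside 10.3% of all genes called higher in males and 20.7% called in either direction. mt-Nd1 had 66.1, 115 and 453 CPM in males and 31.4, 73.3 and 154 in females, a log2 fold change of 1.38 (SE 0.41, adjusted p = 0.0243). The other 4 were mt-Atp6 at 1.51 (SE 0.47, adjusted p = 0.0305), mt-Co2 at 1.45 (SE 0.45, adjusted p = 0.0289), mt-Cytb at 1.27 (SE 0.44, adjusted p = 0.0484) and mt-Tp at 1.25 (SE 0.40, adjusted p = 0.0325). Of these, mt-Atp6 and mt-Co2 are uncertain because each has a nearly full-length copy. Of the fragments on member and copy, mt-Atp6 held 24.2% to 58.6% and mt-Co2 39.9% to 54.2% over the 45 mice. mt-Co1 missed the threshold at 0.98 (SE 0.36, adjusted p = 0.0602), and mt-Nd6 had 0.20 (SE 0.47, adjusted p = 0.811). These calls rested on single mice: none was left without Pkd1KO male replicate 1 or without replicate 7, which had the highest chrM shares of their group, and 1 or 2 were left without any 1 of 6 females. The comparison uses the same Pkd1KO females as the one with Pkd1KO+ciliaKO females. No member was called between the sexes in noncystic mice, where 20.6% of all genes were, or in Pkd1KO+ciliaKO mice, where 10.6% were; with edgeR 0 and 1 members had an unadjusted p under 0.05, and DESeq2 called 0 in both.

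Ratios between 2 members within a mouse set aside how much mitochondrial RNA its library held. mt-Nd6 and mt-Nd5 are complex I subunits encoded on opposite strands with overlapping ends, and the sources used here do not say whether strand was used in counting. The ratio of mt-Nd6 to mt-Nd5 fragments was 0.0627 to 0.0827 in the 7 Pkd1KO males (median 0.0777) and 0.0871 to 0.107 in the 8 Pkd1KO females (median 0.0960). Every male was below every female. The mean log2 ratio was lower in males by a difference of -0.35 (exact permutation test, two-sided, p = 0.000311, adjusted p = 0.00839 over 27 tests). Noncystic males had 0.0679 to 0.0889 and noncystic females 0.0752 to 0.115 (exact permutation test, adjusted p = 0.407), and Pkd1KO+ciliaKO males had 0.0783 to 0.101 and females 0.0816 to 0.103 (exact permutation test, adjusted p = 0.407). Whether the sex difference itself differs between genotypes was not tested.

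In males the ratio in Pkd1KO mice was lower than in Pkd1KO+ciliaKO mice by a log2 difference of -0.23, which missed the threshold after adjustment (exact permutation test, p = 0.00559, adjusted p = 0.0755). The ratio of mt-Rnr2 to mt-Nd1, an rRNA against the mRNA next to it on the same precursor, was 0.0161 to 0.0463 in Pkd1KO females and 0.0140 to 0.0255 in Pkd1KO+ciliaKO females, a log2 difference of 0.71 (exact permutation test, p = 0.0153, adjusted p = 0.138). The ratio of the 2 rRNAs, mt-Rnr2 to mt-Rnr1, had group medians from 1.09 to 1.46, and none of its 9 comparisons passed (smallest adjusted p = 0.367, exact permutation test). Ratios with an rRNA also carry what depletion left in each library, and that part was not tested. Only 1 of the 27 ratio tests passed after adjustment.

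The nuclear genes of the same complexes were measured beside chrM. Between Pkd1KO and Pkd1KO+ciliaKO females none of the 69 nuclear-encoded subunits of complexes I, III, IV and V was called, with a median log2 fold change of 0.08. None of 18 genes for copying and transcribing mitochondrial DNA and none of 26 for processing mitochondrial RNA was called either, with medians of 0.02 and 0.03. Of 77 mitochondrial ribosomal protein genes 10 were higher in Pkd1KO and none lower, where 5.82% of all genes were called higher and 3.68% lower, led by Mrps11 at a log2 fold change of 0.33 (SE 0.07, adjusted p = 0.00639), Mrpl18 at 0.31 (SE 0.07, adjusted p = 0.00902) and Mrps7 at 0.26 (SE 0.06, adjusted p = 0.0154). Of 12 genes listed for mitochondrial translation or complex assembly Gfm2, which acts in ribosome recycling, was the only one called, higher at 0.28 (SE 0.08, adjusted p = 0.0285). In male against female Pkd1KO mice 4 of the 69 nuclear-encoded subunits were higher and 3 lower, where 10.3% of all genes were called higher and 10.5% lower, with a median of -0.00.

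Nuclear-encoded RNAs that cytosolic ribosomes do not translate were among the calls in both comparisons that had chrM calls. Of 8 tested, 3 were lower in Pkd1KO than in Pkd1KO+ciliaKO females, where 3.68% of all genes were called lower. They were Rn7sk, a small nuclear RNA that holds back transcription elongation, at a log2 fold change of -1.51 (SE 0.22, adjusted p = 0.000717), Neat1, the scaffold of nuclear paraspeckles, at -0.58 (SE 0.14, adjusted p = 0.0137), and Malat1, a nuclear speckle RNA, at -0.69 (SE 0.21, adjusted p = 0.0446). The same 3 were higher in male than in female Pkd1KO mice, at 1.52 (Rn7sk), 0.44 (Neat1) and 0.90 (Malat1). Over all genes 10.3% were called higher in males there and 20.7% in either direction. Rn7sk had a lowest, median and highest level of 169, 231 and 304 CPM in Pkd1KO females and 245, 642 and 1009 in Pkd1KO+ciliaKO females. Rmrp and Terc had no fragment in any mouse. By their medians over the 45 mice, Malat1 (1112 CPM), Rn7sk (355 CPM) and Neat1 (97.9 CPM) were the most abundant of the list. Over the list the summed level was 732 to 1559 CPM in Pkd1KO females, 1091 to 2855 in Pkd1KO+ciliaKO females and 1374 to 3518 in Pkd1KO males. Its part in the chrM results was not tested.

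Within groups the level of mt-Co1 also went with these RNAs from mouse to mouse. In the 24 males the deviations of log2 mt-Co1 from the group mean had a Pearson correlation of 0.822 with those of the summed untranslated RNAs (permutation test within groups, p = 1e-05, the smallest that 100000 resamples can give, adjusted p = 8e-05) and a Spearman correlation of 0.741 (permutation p = 1e-04, adjusted p = 0.0008). In the 21 females they were 0.759 (permutation p = 0.00011, adjusted p = 0.00044) and 0.717 (permutation p = 0.00044, adjusted p = 0.00176). Without the 2 mice farthest from the median of the summed RNAs Pearson's r was 0.690 in males and 0.648 in females. The 3 mice with the highest chrM shares, Pkd1KO+ciliaKO male replicate 9, noncystic male replicate 4 and Pkd1KO male replicate 1, also had the 3 highest sums of these RNAs.

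**Figure D4:**
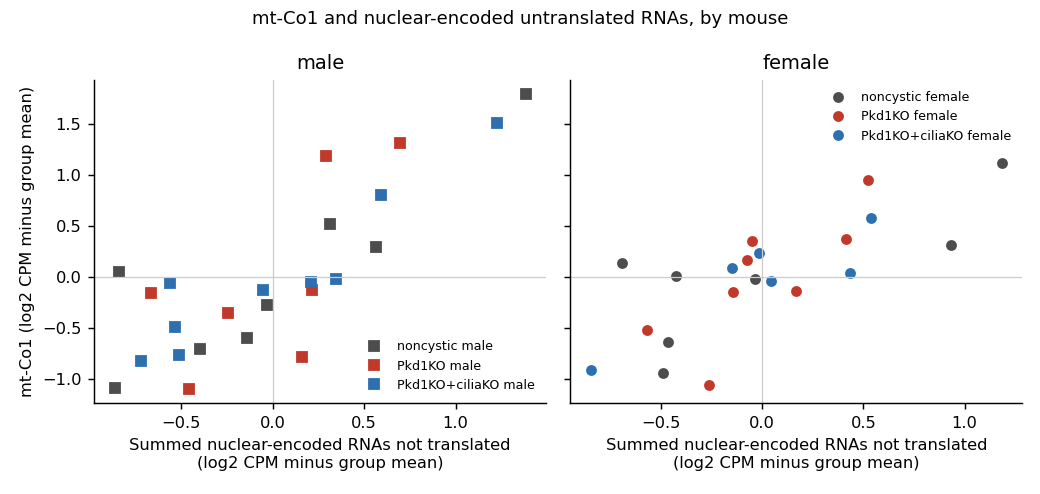
mt-Co1 against the summed level of nuclear-encoded RNAs that are not translated, each as log2 CPM minus the mean of the mouse's group, for 24 males (left) and 21 females (right). Points rise from lower left to upper right in both sexes, with Pearson's r of 0.822 in males and 0.759 in females.

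With the summed markers of podocytes and endothelium, cells outside the tubule, the deviations of mt-Co1 had a Pearson correlation of 0.655 in females (permutation p = 0.00273, adjusted p = 0.00728), a Spearman correlation of 0.668 (permutation p = 0.00239, adjusted p = 0.00637) and Pearson's r of 0.739 without the 2 mice farthest from the median. In males Pearson's r was 0.370 (permutation p = 0.1, adjusted p = 0.160), Spearman's rho 0.536 (permutation p = 0.0113, adjusted p = 0.0227), and r 0.717 without the 2 farthest (permutation adjusted p = 0.00216). With the summed nuclear-encoded subunits Pearson's r was -0.578 in females (permutation p = 0.00826, adjusted p = 0.0165), Spearman's rho -0.525 (permutation p = 0.0203, adjusted p = 0.0325). Without the 2 farthest females r was -0.370 (permutation adjusted p = 0.180). Without the 2 libraries against their Kif3a label r was -0.689 (permutation adjusted p = 0.00522), so whether this relation passed depended on which mice entered. In males neither coefficient passed (r = -0.268, permutation adjusted p = 0.302; rho = -0.172, permutation adjusted p = 0.502). With library size r was 0.196 in males and 0.153 in females, and neither passed (permutation adjusted p = 0.440 and 0.540). There were 8 such relations.

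The summed endothelial markers were 98.6 to 201 CPM in Pkd1KO and 161 to 290.4 in Pkd1KO+ciliaKO females, where 1 of 8 was called (Ehd3, lower in Pkd1KO at -0.71 (SE 0.14, adjusted p = 0.00506)). The summed podocyte markers were 56.3 to 109 and 81.1 to 136 CPM, where none of 6 was called. Of 4 markers of the thick ascending limb Slc12a1, its sodium, potassium and chloride transporter, was called lower in Pkd1KO at -0.51 (SE 0.11, adjusted p = 0.00822). Of 6 blood and immune markers Csf1r, the receptor of a macrophage growth factor, was called higher at 0.80 (SE 0.15, adjusted p = 0.00446). In the same comparison 1 of 7 proximal tubule markers was called higher, 1 of 3 of the distal convoluted tubule and 1 of 4 of intercalated cells lower, and none of 4 of principal cells, where 5.82% of all genes were called higher and 3.68% lower. In Pkd1KO males the endothelial sum was 119 to 522 CPM, the podocyte sum 70.1 to 186 and the blood and immune sum 143 to 666, beside 107 to 211 in Pkd1KO females, and none of these markers was called between the sexes. Of the tubule markers, 3 of 4 of the thick ascending limb were called lower in males there and 3 of 7 of the proximal tubule higher, with 1 of 7 lower, where 10.5% of all genes were called lower and 10.3% higher. The part of these cells in the chrM results was not tested.

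How fragments divided between mt-Nd3 and its copy differed sharply from mouse to mouse. Of the fragments counted on mt-Nd3 and Gm28438, mt-Nd3 held 2.75% to 12.8% in 10 mice and 69.2% to 93.6% in the other 35, with no mouse in between. The 10 low mice were noncystic male replicates 1 to 5, Pkd1KO male replicates 3 and 7, noncystic female replicate 2, Pkd1KO female replicate 2 and Pkd1KO+ciliaKO female replicate 6. Noncystic male replicate 3, for example, had 17 fragments on mt-Nd3 and 411 on Gm28438, a share of 3.97% (95% Wilson interval 2.49% to 6.27%), and noncystic male replicate 7 had 110 and 16, a share of 87.3% (80.4% to 92.0%). The neighbouring mt-Tr had 0 to 6 fragments in the 10 low mice and 5 to 74 in the other 35. The 10 mice were 5 of 8 noncystic males, 2 of 7 Pkd1KO males, none of 9 Pkd1KO+ciliaKO males and 1 in each female group. Of the 2 libraries against their Kif3a label, noncystic female replicate 5 at 69.2% was the lowest of the 35 and Pkd1KO+ciliaKO female replicate 6 at 12.8% the highest of the 10.

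**Figure D5:**
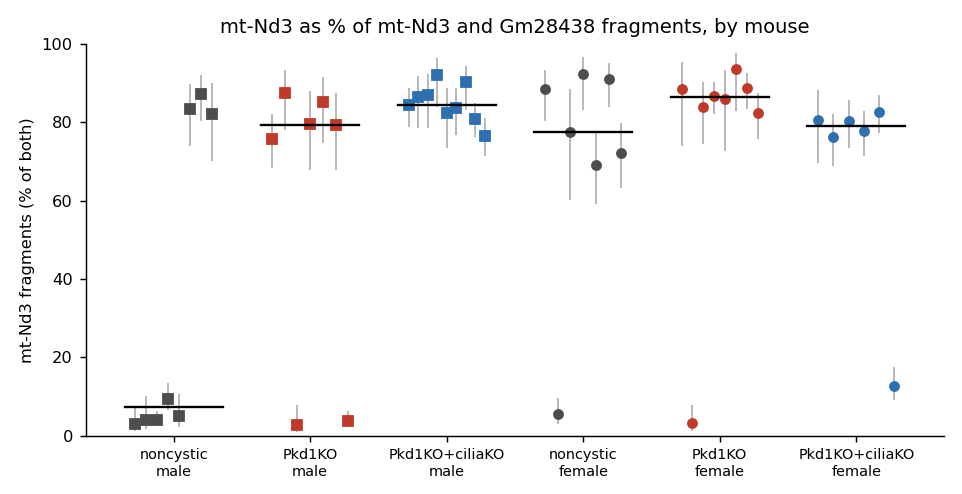
Fragments on mt-Nd3 in percent of those on mt-Nd3 and its chromosome 1 copy Gm28438, for each mouse by group (squares males, circles females; grey bars, 95% Wilson intervals; black line, group median). The 45 mice form a lower set of 10, up to 12.8%, and an upper set of 35, from 69.2%.

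mt-Co3 and mt-Nd4l divided from their copies in the same mice. mt-Co3 held 28.8% to 44.9% of the fragments on mt-Co3 and Gm28437 in the 10 mice and 50.1% to 79.6% in the other 35. mt-Nd4l held 6.21% to 15.1% of those on mt-Nd4l and Gm10222 in the 10 and 48.5% to 80.5% in the 35. For mt-Atp6 and mt-Co2 the ranges of the 10 and the 35 overlapped, at 24.2% to 58.6% and 36.6% to 54.7% for mt-Atp6, and at 43.7% to 54.2% and 39.9% to 53.1% for mt-Co2. mt-Co1 and mt-Nd4, which have long stretches outside the copy, held at least 99.8% and 99.5%. The part of this division in the levels of mt-Nd3, mt-Nd4l, mt-Co3 and mt-Tr was not tested. In noncystic males mt-Nd3 had 0.0360, 0.204 and 1.3 CPM and in Pkd1KO+ciliaKO males 0.686, 0.911 and 1.97, a log2 fold change of 1.69 (SE 0.54, adjusted p = 0.0653) that missed the threshold. Its copy Gm28438 was called in the opposite direction in the same comparison, at -2.38 (SE 0.62, adjusted p = 0.0244).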

How the data were processed

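TRAP RNASeq was measured in 45 mice, 1 library each, in 6 groups of genotype and sex taken from the labels. The authors deposited fragment counts per gene, without normalization, and gene lengths in bases, made with fastp 0.20.0, STAR 2.7.9 and featureCounts 2.0.0 on GRCm38.p6 and GENCODE vM25; strand and multimapping options are not given in the sources used here. The authors also deposited TPM tables, used here only to tell which genes passed their filter as protein-coding. The members and gene lists were chosen with earlier results of these data known.

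Genes reaching 6 counts in 20% or more of the mice of the sex (of all mice, between sexes and in interactions) were tested with edgeR 4.0.16 in R 4.3.3 (TMM, quasi-likelihood test, Benjamini-Hochberg adjustment, threshold 0.05), each pair of groups by itself, and interactions over all 45 mice. All gene classes entered, whereas the authors tested protein-coding genes with DESeq2. Levels are TMM-scaled CPM. On simulated counts with 200 changed genes for Pkd1KO against noncystic males, 85.7% of changes of 1 on the log2 scale and 100% of changes of 2 were called. The changed genes were drawn at random from all genes above a low level. The abundant chrM members spread more between mice (percentiles 99.0 to 99.5), and the rate for genes with such a spread was not measured. DESeq2 1.42.0 and further alternatives are given with the closing observations. Ratios were taken on fragments plus 0.5 and compared with two-sided exact permutation tests. Levels per length use the deposited gene lengths. No molecular identifiers are stated, so intervals and floors cover counting error only. All pairs of mice within a group differed beyond sampling noise (chi-square over its degrees of freedom at least 79.3). Coordinates are GRCm38; sequences and gene classes are from GENCODE vM21, whose coordinates match those of the files for all 37 members. Named were all chrM mRNAs and rRNAs, tRNAs that were called or among the 3 with the most counts, Kif3a, nuclear copies, and of each list at most the 3 genes with the smallest p; mt-Td, mt-Tf, mt-Ts2, mt-Tg, Rmrp and Terc were named after their values were seen.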

Additional observations from a re-analysis of the deposited data

Results flagged for a closer look

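A value was flagged where the highest or lowest mouse of a group stood apart from the others by Dixon's criterion; 28 of 126 groups of values were, where chance alone gives about 6.3, and the members share libraries, so the flags are not independent. Noncystic male replicate 4 was flagged as highest of 8 for the chrM share (0.404%), for the summed nuclear-encoded RNAs not translated (4708 CPM), and for these levels in CPM: mt-Nd1 570.0, mt-Nd2 193, mt-Co1 1344, mt-Co2 8.93, mt-Atp8 0.0590, mt-Atp6 1.91, mt-Co3 3.37, mt-Nd4 437, mt-Nd5 635, mt-Cytb 901. Pkd1KO+ciliaKO male replicate 9 was flagged as highest of 9 for these levels in CPM: mt-Rnr1 18.2, mt-Rnr2 16.2, mt-Nd1 592, mt-Co2 11.7, mt-Nd4 469. Noncystic female replicate 7 was flagged as highest of 7 for the chrM share (0.243%) and for mt-Nd2 93.6, mt-Cytb 439 CPM. Pkd1KO female replicate 4 was flagged as highest of 8 for mt-Nd2 74.6, mt-Cytb 272 CPM. Pkd1KO+ciliaKO female replicate 1 was flagged as lowest of 6 for mt-Nd2 32.2, mt-Atp6 0.265 CPM. The ratio of mt-Rnr2 to mt-Rnr1 was flagged as lowest of 8 in noncystic male replicate 2 (0.786). The share of mt-Nd3 in the fragments of mt-Nd3 and Gm28438 was flagged as lowest in noncystic female replicate 2 (5.43%), Pkd1KO female replicate 2 (3.12%) and Pkd1KO+ciliaKO female replicate 6 (12.8%).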

How the results depend on the processing

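No result that passed the threshold, in the main run or in an alternative, changed direction between them. Sign changes of results that passed in neither were not counted. Of the tRNAs only mt-Tp, mt-Tc and mt-Tr were followed singly. The 9 calls in Pkd1KO against Pkd1KO+ciliaKO females became 7 with protein-coding genes only, 9 with DESeq2's size factors, with library sizes without chrM or without the 2 libraries against their Kif3a label, 10 with no filter or with all 3 genotypes in one fit, 11 with DESeq2 and 12 with a replicate block. Without 1 mouse they were 8 to 14, with 14 without Pkd1KO female replicate 4. The 5 calls in male against female Pkd1KO mice became 0 with the replicate block and 0 to 8 without 1 mouse, with 0 without male replicate 1 or 7, 1 without female replicate 1 or 2, 2 without female replicate 3, 5, 6 or 8, and 8 without female replicate 4. DESeq2 called 2 members in Pkd1KO against Pkd1KO+ciliaKO males, 2 in Pkd1KO+ciliaKO against noncystic males and 1 in Pkd1KO+ciliaKO against noncystic females, where edgeR called 0; the cause was not tested. Without noncystic male replicate 7 edgeR called 3 in Pkd1KO+ciliaKO against noncystic males (0 to 3) and 1 in male against female noncystic mice (0 to 1), among them mt-Tg. The replicate numbers only number mice: the correlation of deviations of same-numbered mice ran from -0.366 to 0.457, and in no comparison was every pair over 0.1. All 42 alternatives of the ratios kept direction and side of the threshold. Of the relations of mt-Co1, the one with podocyte and endothelial markers in males went to 0.717 and the one with nuclear-encoded subunits in females to -0.370 without the 2 farthest mice, and the other 10 alternatives kept their side. Depth limits the tRNAs, mt-Atp8 (at most 6 fragments in a mouse) and members with a copy (mt-Nd3, 3 to 259 fragments).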
